A study of Mus musculus with 2 samples.

Results

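The kainate and delta glutamate receptor genes examined here were Grik1, Grik2, Grik3, Grik4, Grik5 and Grid1. They were chosen by symbol, which is the transcript name in the deposited table without its trailing number, and these 6 genes were among 45578 genes in the table. Each symbol belonged to 1 Ensembl gene, and all 6 had footprints in both libraries. The libraries came from whole brains of mice at postnatal day 5 with the genotype Smn+/-; SMN2tg/0 on the FVB background, which the labels call controls. Every animal therefore carried 1 disrupted copy of mouse Smn and a human SMN2 transgene. The assay, Poly-RIBOseq, sequences the fragments of 25 to 35 nucleotides that ribosomes protect from RNase I in pooled polysomal fractions of a sucrose gradient. The 2 biological replicates formed a single group, so the values describe what ribosomes in such a brain were occupied with, and how far 2 libraries differed.

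Kainate receptors are tetrameric glutamate-gated cation channels. The proteins GluK1, GluK2 and GluK3, encoded by Grik1, Grik2 and Grik3, can form channels without the others. GluK4 and GluK5, encoded by Grik4 and Grik5, bind kainate with high affinity but need a subunit of the first kind to reach the membrane as a working receptor. These receptors sit on both sides of synapses, where they modulate transmitter release and carry slow postsynaptic currents, and they are known for roles in immature circuits. GluD1, the delta receptor encoded by Grid1, resembles them in sequence but is not gated by glutamate in the usual way. It binds secreted cerebellins, which in turn bind presynaptic neurexins, and so acts as a synapse organiser.

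Replicate 1 held 1866831 footprints and replicate 2 held 5261878. A count of 0, taken as up to 3 counts, allowed a level of up to 1.61 CPM (counts scaled to the library total) in replicate 1 and 0.570 CPM in replicate 2. Each of 6 neuronal markers had at least 10 footprints in both libraries, and their summed level was 4933 CPM in replicate 1 and 3880 CPM in replicate 2. Sums were also lower in replicate 2 for astrocyte and radial glia (1770 and 1548), excitatory neuron (322 and 267) and inhibitory neuron markers (624 and 522). The sum of oligodendrocyte-lineage markers went the other way, at 696 and 911 CPM. Of 3 liver markers, Alb and Apoa2 had no footprint in either library, and Serpina1a had 0 in replicate 1 and 2 in replicate 2. The 3 skeletal muscle markers had footprints in both libraries, with 1 and 20 on Myh3, 3 and 4 on Ckm, and 3 and 16 on Actn3. Their summed level was 3.75 CPM in replicate 1 and 7.60 CPM in replicate 2. Counts belong to annotated transcripts and were summed per gene. To compare genes of different length, a gene's CPM was divided by its longest annotated coding sequence, giving a footprint density in CPM per kilobase. Footprints in untranslated regions could not be separated and are part of each count.

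The 6 genes encode proteins of similar size. Their longest coding sequences ran from 2688 nucleotides in Grik1 to 3030 in Grid1, with 2727 in Grik2, 2760 in Grik3, 2871 in Grik4 and 2940 in Grik5. These lengths lay between percentiles 81.3 and 85.7 of 13317 coding genes that averaged 10 or more footprints, whose median coding length was 1413 nucleotides. The RefSeq promoter table, on build GRCm38.p6, held a start site for 4 of the 6 genes. The 100 bases before that start are shown to let the start regions of these related genes be compared in base composition. They are written 5′ to 3′ on the strand of the gene, with every CG pair in capitals.
Grik2: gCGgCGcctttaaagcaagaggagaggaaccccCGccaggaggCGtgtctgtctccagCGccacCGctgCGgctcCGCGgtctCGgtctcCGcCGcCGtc
Grik3: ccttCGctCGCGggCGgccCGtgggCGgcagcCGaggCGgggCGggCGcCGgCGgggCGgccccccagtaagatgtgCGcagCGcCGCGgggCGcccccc
Grik4: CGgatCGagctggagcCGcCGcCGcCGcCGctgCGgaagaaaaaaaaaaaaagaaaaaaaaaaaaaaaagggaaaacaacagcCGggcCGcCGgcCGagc
Grik5: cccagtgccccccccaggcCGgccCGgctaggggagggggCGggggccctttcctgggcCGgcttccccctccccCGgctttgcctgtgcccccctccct
The Grik2 window is chr10:49788755-49788854 on the minus strand, and the Grik3 window is chr4:125490596-125490695 on the plus strand. The Grik4 window is chr9:42944372-42944471 and the Grik5 window chr7:25072370-25072469, both on the minus strand. CG pairs numbered 18 in Grik3, 13 in Grik2, 12 in Grik4 and 5 in Grik5. The motif searched was CG, which reads the same on both strands. Of 32851 promoter windows of this length, 1.98% held at least 18, 9.45% at least 13, 12.1% at least 12 and 38.9% at least 5, and the median was 3. The Grik5 window had fewer CG pairs than the others, although 80.0% of its bases were G or C. The Grik4 window, at 55.0% G or C, carried long runs of A beside its CG-dense stretches. These are features of the sequence alone and were not related to the counts.

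Among the subunits that can form channels without the others, Grik2 and Grik3 were well represented and Grik1 was not. Footprints on Grik2 numbered 156 in replicate 1 and 544 in replicate 2. The density was 30.6 CPM per kilobase (exact Poisson 95% interval 26.02 to 35.8) in replicate 1 and 37.9 (34.8 to 41.2) in replicate 2, averaging 34.3 ± 5.14 (SD, n = 2). This was the highest mean among the 6 genes, and Grik2 ranked first in each library. Grik3 had 132 and 326 footprints. Its density was 25.6 CPM per kilobase (21.4 to 30.4) in replicate 1 and 22.4 (20.1 to 25.02) in replicate 2, with a mean of 24.03 ± 2.24. The Grik3 level thus lay close to the median density of 13317 coding genes, which was 23.5 CPM per kilobase. Grik1 had 30 and 106 footprints. Its density was 5.98 CPM per kilobase (4.03 to 8.53) in replicate 1 and 7.49 (6.14 to 9.06) in replicate 2, with a mean of 6.74 ± 1.07. Grik2 density was 5.13 times that of Grik1 in replicate 1 and 5.06 times in replicate 2. In bulk tissue, fewer cells that use a gene and less RNA per cell cannot be told apart.

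The high-affinity subunits formed a similar contrast, with Grik5 well above Grik4 in both libraries. Footprints on Grik5 numbered 161 in replicate 1 and 325 in replicate 2, for a density that was 29.3 CPM per kilobase (24.98 to 34.2) in replicate 1 and 21.01 (18.8 to 23.4) in replicate 2, with a mean of 25.2 ± 5.89. The intervals of the libraries did not overlap for Grik5, which had the widest spread of the 6 genes. Grik4 had 31 and 115 footprints. Its density was 5.78 CPM per kilobase (3.93 to 8.21) in replicate 1 and 7.61 (6.28 to 9.14) in replicate 2, with a mean of 6.70 ± 1.29. Grik5 density was 5.07 times that of Grik4 in replicate 1 and 2.76 times in replicate 2. The order was the same in both, but the size of the gap differed because Grik5 was lower and Grik4 higher in replicate 2.

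The delta receptor gene Grid1 lay in the upper group. Its footprints numbered 127 in replicate 1 and 340 in replicate 2. The density was 22.5 CPM per kilobase (18.7 to 26.7) in replicate 1 and 21.3 (19.1 to 23.7) in replicate 2, with a mean of 21.9 ± 0.797. This was the smallest SD of the 6 when counts were scaled by library totals. With library sizes scaled by TMM (trimmed mean of M values), Grid1 had 23.5 and 20.4 CPM per kilobase. Grik1 values lay closer together on that scale, at 6.25 and 7.17, as did those of Grik4, at 6.04 and 7.29. Grid1 made up 18.4% ± 0.450 of the summed density of the 6 genes.

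**Figure D1:**
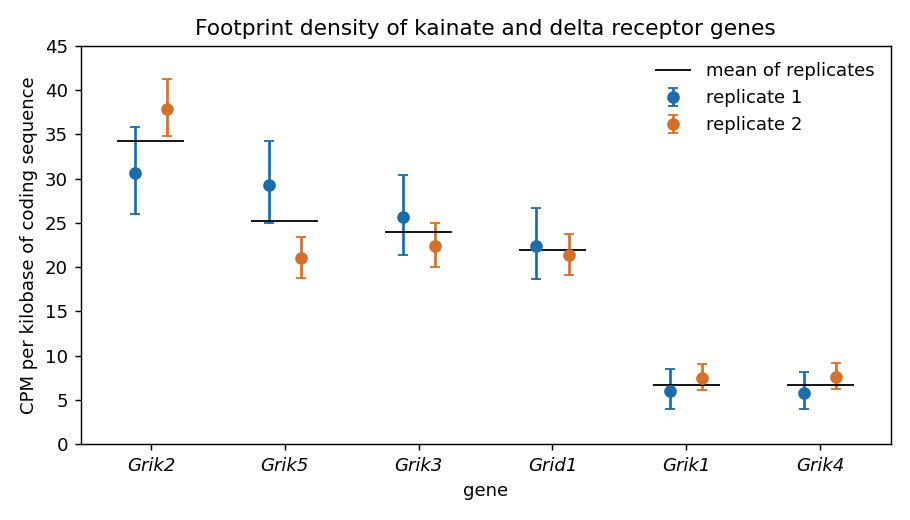
Footprint density of each gene in CPM per kilobase of coding sequence, with 1 point per replicate, bars for the exact Poisson 95% interval of the count and a black line for the mean of the replicates. Grik2, Grik5, Grik3 and Grid1 lie between 21.01 and 37.9, and Grik1 and Grik4 between 5.78 and 7.61.

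The order of mean densities was Grik2, Grik5, Grik3, Grid1, Grik1 and Grik4, in which 4 genes of higher density stood apart from Grik1 and Grik4. Among the 15 pairs of genes, 11 had replicate values that did not overlap, and in 8 of these the counting intervals were also apart in both libraries. Those 8 pairs each joined Grik1 or Grik4 to a gene of the upper group. Of the 5 pairs of neighbours, 2 were apart. Grid1 exceeded Grik1 by 3.76 times in replicate 1 and 2.85 times in replicate 2. Grik2 exceeded Grik5 by 1.80 times in replicate 2 but by 1.04 times in replicate 1, where the counting intervals overlapped. Grik5 and Grik3 did not differ beyond the replicate spread, nor did Grik3 and Grid1, nor Grik1 and Grik4. At percentiles of mean density among the 13317 coding genes, Grik2 stood at 60.6, Grik5 at 51.9, Grik3 at 50.6 and Grid1 at 48.0. Grik1 stood at 19.3 and Grik4 at 19.1. When counts were divided by the longest transcript in place of the coding sequence, Grid1 passed above Grik3. The Grik3 transcript has a 3′ untranslated region of 6082 of its 8973 nucleotides, so this scale lowered Grik3 to 7.39 CPM per kilobase. With the transcript of highest count alone the order was Grik5, Grik3, Grid1, Grik2, Grik4 and Grik1, and Grik2, whose footprints are spread over several transcripts, had 16.98 CPM per kilobase.

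The mix of the 5 kainate subunits was dominated by Grik2, Grik5 and Grik3. Of their summed density, Grik2 took 31.5% in replicate 1 and 39.3% in replicate 2. Grik5 took 30.1% and 21.8%, and Grik3 took 26.3% and 23.3%. Grik1 took 6.14% and 7.77%, and Grik4 took 5.94% and 7.89%. Grik2 and Grik5, which were close to equal in replicate 1, were therefore unequal in replicate 2. The subunits that need a partner, Grik4 and Grik5 together, took 36.1% in replicate 1 and 29.7% in replicate 2, or 32.9% ± 4.53 (SD, n = 2). In both libraries the subunits that do not need one made up the larger part. Within the partner-dependent pair, Grik4 took 16.5% in replicate 1 and 26.6% in replicate 2. The summed density of the 5 kainate genes, scaled by library totals, was 97.4 CPM per kilobase in replicate 1 and 96.5 in replicate 2. On that scale the total differed less between the libraries than did the share of Grik2 or Grik5. With TMM library sizes the sum over all 6 genes was 125 in replicate 1 and 113 in replicate 2.

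The table resolves 17 annotated transcripts for the 6 genes, of which 14 are labelled protein coding. Grik3 and Grik5 had 1 transcript each, which held all of their footprints. The other genes had 2 or more transcripts, and how fragments that match several of them were assigned is not given in the sources used here. Grik1-201 held 12 of 30 Grik1 footprints in replicate 1 and 42 of 106 in replicate 2. Grik1-202 held 10 and 35, and Grik1-203 held 8 and 29. The Grik1 transcripts, with coding sequences of 2601, 2688 and 2499 nucleotides, did not differ in share beyond their counting intervals in either library. Grik4-001 held 17 and 70 footprints and Grik4-201 held 14 and 45. Both Grik4 transcripts have a coding sequence of 2871 nucleotides, and they differ in annotated untranslated length.

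Grik2 had the most complex annotation, with 8 transcripts. Grik2-001, with a coding sequence of 2727 nucleotides, held 39 of 156 footprints in replicate 1 and 138 of 544 in replicate 2, a share of 25.2% ± 0.260 (SD, n = 2). Grik2-202 encodes the same length and held 22 and 75 footprints. Grik2-005, with 2682 coding nucleotides, held 21 and 85. Grik2-004 and Grik2-201, each with 2610 coding nucleotides, held 21 and 67 footprints and 20 and 86 footprints. Grik2-002 has a coding sequence of 1017 nucleotides, much shorter than the others. It held 24 footprints in replicate 1 and 62 in replicate 2, which was 15.4% (Clopper-Pearson 95% interval 10.1 to 22.02) and 11.4% (8.85 to 14.4) of the gene. The share of this short form did not differ between the libraries beyond counting error. The part of it that came from exons shared with the longer forms was not tested.

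Few footprints of these genes were assigned to transcripts that are not protein coding. The 2 retained-intron transcripts of Grik2 held 9 footprints in replicate 1 and 31 in replicate 2, or 5.77% (2.67 to 10.7) and 5.70% (3.90 to 7.99) of the gene. The processed transcript Grid1-002 held 7 and 22 footprints, or 5.51% (2.24 to 11.03) and 6.47% (4.10 to 9.63) of Grid1. The other 4 genes have no such transcript in the table. Over the 6 genes together, protein-coding transcripts took 97.5% (95.95 to 98.6) of 637 footprints in replicate 1 and 96.98% (96.1 to 97.7) of 1756 in replicate 2. The same share was 76.3% and 74.8% over the whole table, which also holds genes with no protein-coding transcript. The share over coding genes alone is not given here. It was 66.0% (63.4 to 68.5) and 61.4% (60.1 to 62.7) for the 4 AMPA receptor genes. For the NMDA receptor genes it was 88.2% (86.6 to 89.6) and 89.6% (88.8 to 90.4), and for the metabotropic receptor genes 92.4% (90.8 to 93.7) and 93.2% (92.4 to 93.9), which were closer to the 6 genes. The classes also differ in annotation, with 14 of 17 transcripts labelled protein coding here, 13 of 25 for AMPA, 26 of 38 for NMDA and 24 of 36 for metabotropic genes.

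**Figure D2:**
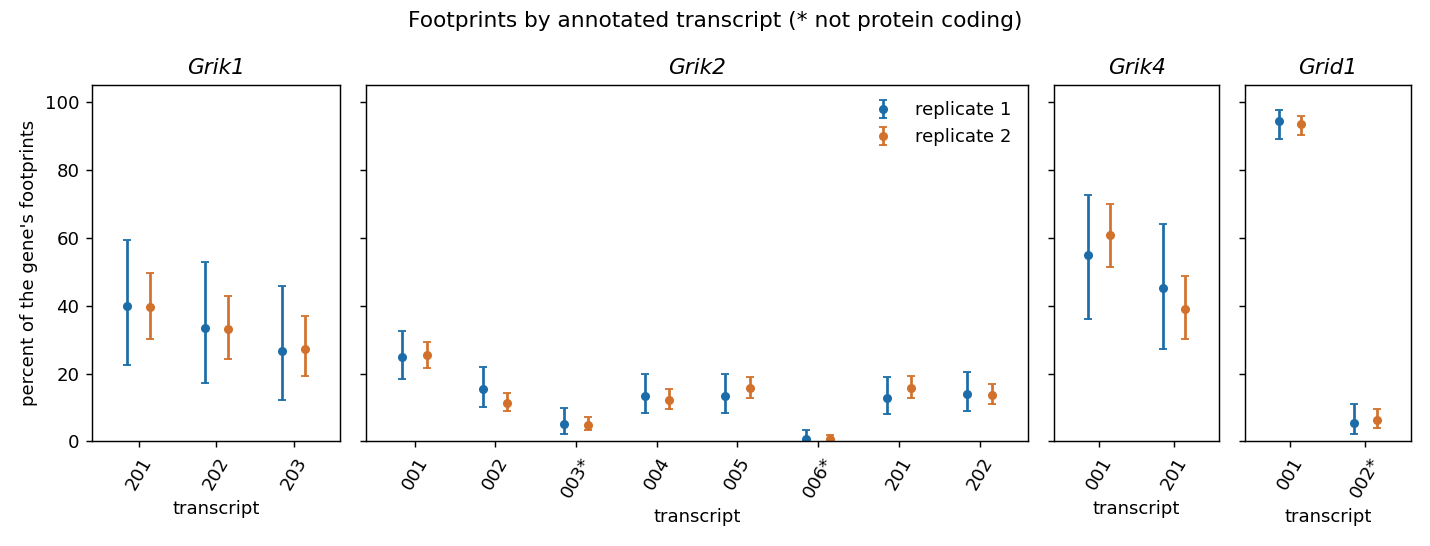
Percent of each gene's footprints on each annotated transcript of Grik1, Grik2, Grik4 and Grid1, with 1 point per replicate and Clopper-Pearson 95% intervals. Transcripts marked with an asterisk are not protein coding, and they hold 5.77% and 5.70% of Grik2 footprints in replicates 1 and 2.

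The replicates were compared gene by gene to see which members differed by more than counting noise. An exact binomial test set the counts against the ratio of library sizes scaled by TMM (trimmed mean of M values), with Benjamini-Hochberg adjustment over 16427 genes, and it compares 2 libraries rather than conditions. Of the 6 genes, 1 was called at an adjusted p under 0.05, where 17.4% of all genes tested were called. That gene was Grik5, with a log2 ratio of replicate 2 over replicate 1 of -0.60 and an adjusted p of 0.000356 by the exact binomial test. Among all genes tested, 11.5% were called in that direction. The log2 ratio of Grik3 was -0.31 (adjusted p = 0.139, exact binomial test) and that of Grid1 was -0.20 (adjusted p = 0.415, exact binomial test). The ratios of Grik1, Grik2 and Grik4 were above 0, at 0.19, 0.18 and 0.26, with adjusted p-values of 0.786, 0.407 and 0.652 in the same exact binomial test. These signs were the same with library totals and with DESeq2 size factors. The median over the 6 genes was -0.01, and the median over all genes tested was 0.01. Scaling by library totals raised the median over all genes to 0.13, and Grik5 was still called, with a log2 ratio of -0.48 (exact binomial test, adjusted p = 0.0063). In that setting 19.0% of all genes were called. The call of Grik5 was absent from edgeR's exact test with a common dispersion, which adds the variation between these libraries and called 11 genes in all (0.0670%). That dispersion was estimated from the same 2 libraries, so the differences tested were themselves counted as variation. The missing call therefore cannot decide whether Grik5 differed.

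**Figure D3:**
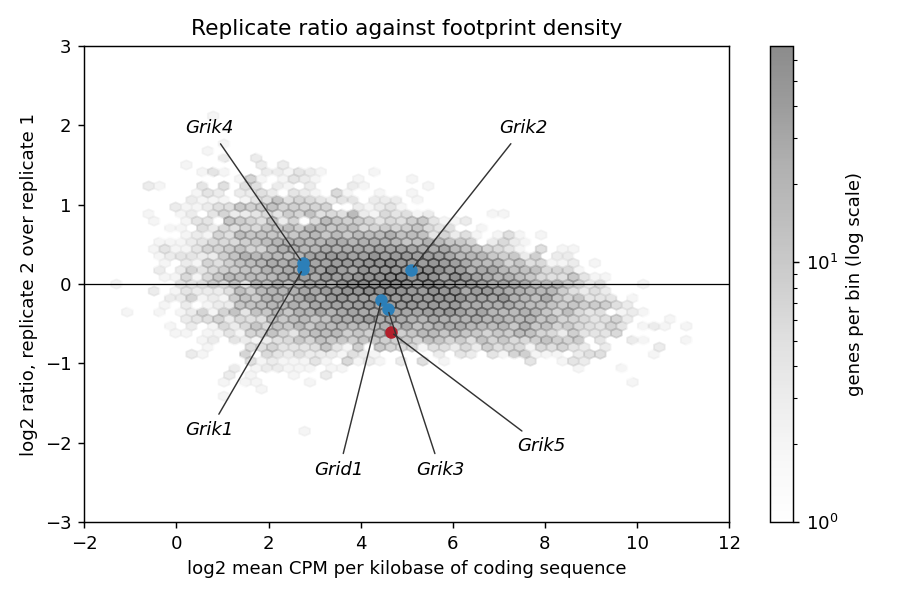
Log2 ratio of replicate 2 over replicate 1 with TMM scaling against the log2 of mean footprint density, for 13317 coding genes as grey bins and the 6 genes as points. Grik5, in red, lies at -0.60 and was called by the exact binomial test, and the other genes, in blue, lie between -0.31 and 0.26.

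Among receptor genes the kainate and delta members occupied the middle and lower ranks. AMPA receptors carry fast excitatory transmission, and NMDA receptors are calcium-permeable channels that need glutamate and a co-agonist. In a ranking of 17 genes by mean density, made of the 6 genes, 4 AMPA genes and 7 NMDA genes, Grik2 was number 8, Grik5 number 9, Grik3 number 10 and Grid1 number 11. Grik1 was number 14 and Grik4 number 15. All 4 AMPA genes lay above Grik2 by mean density, from Gria4 at 44.6 ± 7.50 to Gria2 at 149 ± 39.5 CPM per kilobase (SD, n = 2). These densities include transcripts not labelled protein coding, which held 34.0% and 38.6% of AMPA footprints in replicates 1 and 2. For Grik2 that part was 5.77% and 5.70%. A ranking with protein-coding transcripts alone is not given here. Gria4, the gene ranked just above Grik2, had 39.3 CPM per kilobase in replicate 1 and 49.9 in replicate 2, both above the Grik2 values. The replicate 1 value of Gria3, at 36.4, lay below the Grik2 value of replicate 2, so those ranges overlapped. Grin1, the NMDA subunit present in every NMDA receptor, had 175 ± 23.6 CPM per kilobase. Grin2a, at 7.64 ± 1.49, was close to Grik1 and Grik4, and Grin2c, at 0.820 ± 0.141, lay below all 6 genes.

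The summed density of a receptor class describes how much footprint signal its genes shared. The AMPA genes summed to 278 CPM per kilobase in replicate 1 and 374 in replicate 2, which was 2.85 and 3.88 times the kainate sum. The NMDA genes summed to 303 and 333 CPM per kilobase, or 3.11 and 3.45 times the kainate sum. The 8 metabotropic receptor genes, which encode G protein-coupled glutamate receptors, summed to 247 and 253 CPM per kilobase, or 2.53 and 2.62 times the kainate sum. Every one of these ratios was above 1 in both libraries. The sums cover different numbers of genes, with 5 kainate, 4 AMPA, 7 NMDA and 8 metabotropic genes. The median of the mean densities was 24.03 CPM per kilobase for the kainate genes and 66.0 for the AMPA genes. It was lower than the kainate median for the NMDA genes, at 19.7, and for the metabotropic genes, at 18.2. With protein-coding transcripts alone the AMPA ratio averaged 2.17. With the transcript of highest count standing for each gene, the ratio averaged 1.31 for AMPA and 1.35 for NMDA genes but 3.05 for metabotropic genes. That setting keeps all footprints of Grik3 and Grik5, which have 1 transcript each. The ratios were not tested over samples.

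**Figure D4:**
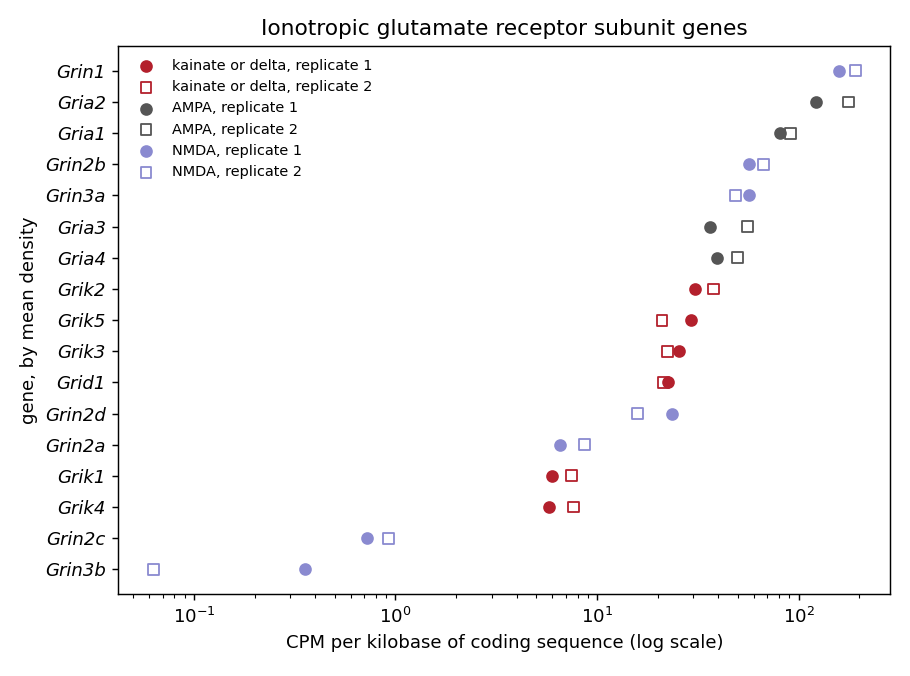
Footprint density of 17 ionotropic glutamate receptor genes in CPM per kilobase of coding sequence on a log axis, with filled circles for replicate 1 and open squares for replicate 2. Grik2, Grik5, Grik3 and Grid1 follow the 4 AMPA genes and Grin1, Grin2b and Grin3a, and Grik1 and Grik4 lie near Grin2a.

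Genes whose products act with these receptors were read from a list of 20. Neto1 and Neto2 encode auxiliary subunits that bind kainate receptors and alter their gating. Neto1 had 144 and 282 footprints, and a density of 48.2 CPM per kilobase in replicate 1 and 33.5 in replicate 2. Neto2 had 73 and 301 footprints, and a density of 23.5 and 34.4 CPM per kilobase. Neto1 was above Neto2 in replicate 1 and slightly below it in replicate 2, so their order was not settled. Neto1 was called lower in replicate 2, at a log2 ratio of -0.65, where 11.5% of all genes tested were called in that direction. The ratio of Neto2 went the other way, at 0.42, and was not called (exact binomial test, adjusted p = 0.113). With library totals Neto2 was called higher, at 0.54 (exact binomial test, adjusted p = 0.022).

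Among genes for proteins that bridge GluD1 to the presynaptic side, 3 cerebellins and 2 neurexins had a higher density than Grid1, and Cbln3 a lower one. Cbln1, a cerebellin, had 135 CPM per kilobase in replicate 1 and 138 in replicate 2, and Cbln2 had 114 and 110. Cbln4 had 84.3 and 58.3 CPM per kilobase and was called lower in replicate 2. Cbln3, with 2 and 14 footprints and a density of 1.80 and 4.48 CPM per kilobase, was below the count minimum and was not tested. Among the neurexins, which bind cerebellins, Nrxn2 had a mean of 173 ± 21.3 CPM per kilobase (SD, n = 2). Nrxn3 was lower, at 46.8 ± 4.35. The densities of Cbln1, Cbln2, Cbln4, Nrxn2 and Nrxn3 exceeded that of Grid1 in both libraries. Coding sequences of Cbln1, Cbln2 and Cbln4 are short, at 582, 675 and 597 nucleotides, and the part of footprints outside them was not tested.

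Among the other partners, the C1q-like proteins are secreted synaptic organisers, some of which bind kainate receptors. C1ql1, C1ql2 and C1ql3 had mean densities of 25.4 ± 8.93, 12.5 ± 5.18 and 26.1 ± 2.34 CPM per kilobase. Adarb1, which edits the pore codon of Grik1 and Grik2 transcripts, had 31.6 CPM per kilobase in replicate 1 and 46.5 in replicate 2, and Adar had 41.3 and 44.97. Of the scaffold genes, Dlg4 (PSD-95) had 104 ± 1.74, Cask 83.2 ± 23.9 and Pick1 62.4 ± 5.45, while Grip1 had 20.99 ± 6.85 and Dlg1 15.1 ± 6.09. Klhl17, which links GluK2 to a ubiquitin ligase, had 11.4 ± 3.15 CPM per kilobase. Pias3, a SUMO ligase, had 19.4 ± 3.75.

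Of the 20 partner genes 19 were tested, and 9 were called by the exact binomial test. The background was 5.95% of all genes called higher and 11.5% called lower in replicate 2. Adarb1, Dlg1, Grip1 and Cask were higher in replicate 2, and Neto1, Cbln4, Nrxn2, C1ql1 and Klhl17 were lower. With library totals 9 were called, 5 higher and 4 lower, and Klhl17 was no longer among them (exact binomial test, adjusted p = 0.110). In that setting 19.0% of all genes tested were called. With protein-coding transcripts alone 7 of the 9 were still called, without Adarb1 and Klhl17. With highest transcripts alone 2 were, Neto1 and Cbln4, and the log2 ratio of Adarb1 was -0.02. The share of all genes called after adjustment in these transcript settings is not given here. At an unadjusted p under 0.05 in the exact binomial test, 4547 of 16427 genes passed in the main setting. With coding transcripts 3761 of 13028 passed, and with highest transcripts 3002 of 15353. In edgeR's exact test, whose dispersion came from the same 2 libraries, none of the 9 was called, and 0.0670% of all genes were. The median log2 ratio of the tested partners was -0.0048. The list was chosen by function, and its counts describe these libraries alone.

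**Figure D5:**
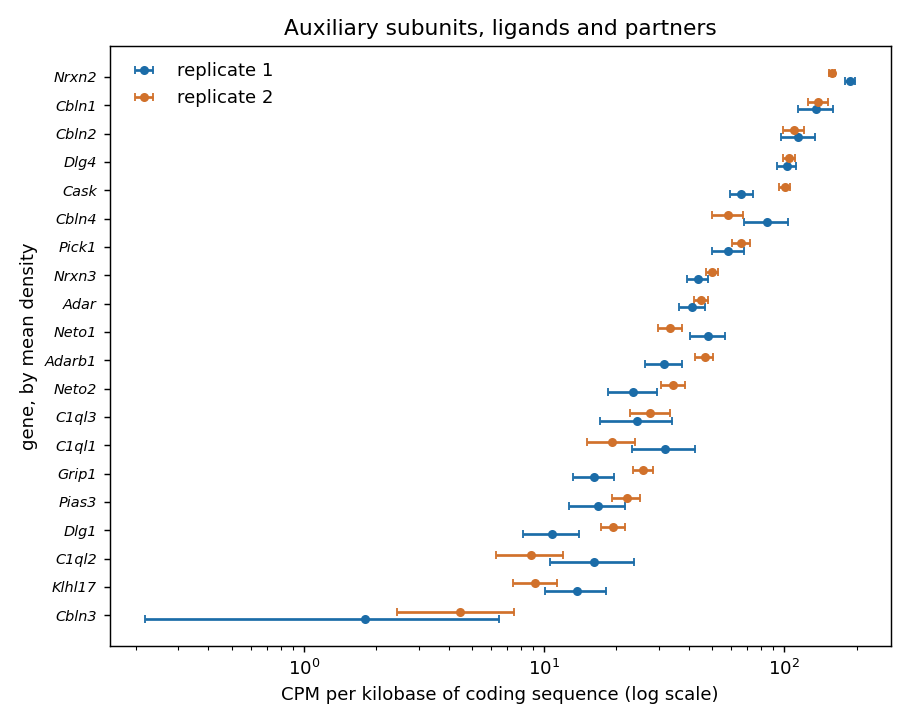
Footprint density of the 20 partner genes in CPM per kilobase of coding sequence on a log axis, with 1 point per replicate and exact Poisson 95% intervals. Nrxn2 and Cbln1 have the highest means, at 173 and 137, and Cbln3, with 2 and 14 footprints, the lowest.

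Genes most like each member in level were found by the distance between log2 densities over the 2 libraries, among 13301 other coding genes. For Grik2 these were Gm10767, at 30.9 and 37.8 CPM per kilobase, and Xpo6, at 30.3 and 38.1. For Grik5 they were Spred3 (29.7 and 21.4) and Kcnf1 (29.3 and 20.5), and for Grik3 Nr1d1 (24.9 and 22.3) and Sap30l (26.3 and 22.5). Grid1 was nearest to Prmt3 (22.3 and 21.4) and Sart3 (22.6 and 21.5). Grik1 was nearest to Gm6578, which had 6 and 21 footprints, and Ccdc157, and Grik4 to Nup214 and Pkdcc. With 2 libraries, this likeness is one of level only.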

How the data were processed

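Per the submitters' processing notes, the tools were Trimmomatic 0.36, Bowtie2 2.2.6 and SAMtools, with build GRCm38.p4. The counting method, annotation release and handling of fragments that match several places are not given in the sources used here. The authors deposited raw whole-number counts per transcript for each replicate. The annotated lengths (other values in the table) were deposited beside them.

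Counts were summed per gene (Python 3.11.15, SciPy 1.17.1) and divided by library totals and the longest coding sequence. Replicates were compared with a two-sided exact binomial test on TMM library sizes (edgeR 4.0.16; DESeq2 1.42.0 for alternative size factors), with a prior of 0.5 CPM for log2 ratios, over genes averaging 10 or more counts. No quasi-likelihood test was possible with 1 group and no contrast. The test was tested on simulated data. These were drawn from the binomial model that the test assumes, so they cannot show how it behaves with further variation between libraries. Because fragments copied by PCR are not independent, the p-values, intervals and floors account for counting error alone. Matched RNA abundance was not analysed here. The members and lists were chosen with earlier results of these data known. The named genes were the 6 members, the listed receptor and partner genes (some partner genes are not reported here), and the 2 genes nearest each member in density. The CG count was added after the data were seen.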

Additional observations from a re-analysis of the deposited data

How the results depend on the processing

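The alternatives tried were other scalings, no filter on low counts, coding or highest transcripts only, other lengths, edgeR's exact test and leaving out either replicate. The median density of the 6 genes, 22.6 CPM per kilobase, was 9.23 per kilobase of longest transcript and 28.6 with highest transcripts alone. The share of Grik4 and Grik5, 32.9%, became 40.5% and 44.9% under the same alternatives. The summed density, 119 CPM per kilobase, became 66.7 and 166, and 116 with protein-coding transcripts alone. With TMM library sizes its mean was still 119, but the replicates had 125 and 113. The highest-transcript values are scaled to a smaller total, which raises genes with 1 transcript such as Grik3 and Grik5, and under that setting Grik2 lay below Grik5, Grik3 and Grid1. The number of called members, 1, was 0 in edgeR's exact test, which also gave 0 members at an unadjusted p under 0.05. Over all 16427 genes edgeR's test gave 719 at that threshold. The binomial test gave 2 members in the main setting, where 4547 of all genes passed. It gave 1 member with protein-coding transcripts alone and 1 with highest transcripts alone. Because the dispersion in edgeR's test came from the same 2 libraries, its lack of calls decides nothing about Grik5. All 6 other settings of the comparison, the main one included, called Grik5. They apply the same binomial test to the same 2 libraries, so their calls are not independent. Of all genes tested, 17.4% were called in the main setting and 19.0% with library totals. Without replicate 1 or 2 the median density ranged from 21.2 to 24.04, the share from 29.7% to 36.1%, the sum from 118 to 120 and the protein-coding share from 96.98% to 97.5%. No paired analysis was possible because the samples form 1 group. Depth limits Grik1 and Grik4 most, with 30 and 31 footprints in replicate 1.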
